A study of Sus scrofa with 16 samples.

Results

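Genes whose colonic signal moved with MS4A1 from pig to pig are described here. MS4A1 encodes CD20, a surface protein of B cells from late development until they become plasma cells. The genes were selected on the deposited log2 values of the 8 colonic arrays. Each probe was centred within its diet, and the reference was the only MS4A1 probe of the array. Probes could be chosen if they carried a gene name, were marked well above background on all 8 colonic arrays and had a centred SD above 0.5. Of 43603 probes, 13817 had a gene name, 10844 of these had signal on all colonic arrays and 3236 also met the spread limit. The 200 with the highest Pearson r to MS4A1 were taken, with the reference among them. The rule then left out 7 probes by name prefix, namely TLR10, SLA-DQA1 (4 probes) and SLA-DOA (2 probes). The remaining 193 probes, called members below, carry 138 gene names. Of these genes, 31 had 2 to 7 member probes and the others 1 each.

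The pigs were barrows (castrated males) of a Duroc × Landrace × Large White cross, sampled at 170 d of age. In the CS group the feed contained purified corn starch at 230 g/kg, and in the RPS group raw potato starch, a resistant starch, took its place. Both amounts rose to 280 g/kg in the finishing diet, and the feeding trial ran for 100 days. Colonic mucosa and liver were each measured on 4 arrays per diet, 1 pig per array. Both diets were based on corn and soybean, feed and water were unlimited, and RNA integrity numbers of at least 7.0 were required.

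B cells recognise antigen through the B cell receptor, an immunoglobulin that signals through the CD79 chains and the kinases SYK and BTK. In the wall of the large intestine they gather in lymphoid follicles. In the germinal centres of such follicles, activated B cells divide and their immunoglobulin genes are mutated. Lymphotoxins made by lymphocytes keep up the stromal cells of the follicle. Plasma cells, which secrete antibody, lose CD20.

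The probes that stand for the main B cell genes are 60-base oligonucleotides, and their sequences are those of the array design. The first 4 are single probes of the reference, its marker genes and a member with a defined role in B cells, shown because the values below are values of these oligonucleotides. CD79A encodes a receptor signalling chain, and POU2F2 (OCT2 on the array) and PAX5 encode transcription factors of B cells.
MS4A1: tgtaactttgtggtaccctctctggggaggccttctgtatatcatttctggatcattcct
CD79A: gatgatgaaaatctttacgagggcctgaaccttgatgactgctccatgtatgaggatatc
POU2F2: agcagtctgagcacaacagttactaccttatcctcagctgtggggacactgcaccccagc
PAX5: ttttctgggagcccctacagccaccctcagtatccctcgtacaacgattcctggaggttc

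FCRLA encodes a Fc receptor-like protein of B cells, and its 2 member probes are shown because they took ranks 2 and 3. Capitals mark the bases that both probes share, which here are all 60.
FCRLA probe 1: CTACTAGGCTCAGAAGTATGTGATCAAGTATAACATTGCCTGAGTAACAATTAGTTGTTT
FCRLA probe 2: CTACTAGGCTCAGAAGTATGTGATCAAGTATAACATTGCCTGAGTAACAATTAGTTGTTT
The 2 member probes thus read 1 FCRLA sequence under 2 names, and the pair shows the repeatability within an array rather than separate evidence. Another FCRLA probe, not well above background on all colonic arrays, had r = 0.985 to MS4A1. Among the 99 pairs of member probes of the same gene, the FCRLA pair was the only identical one, and 16 pairs shared a run of at least 20 bases. In 19 of the 31 genes with several member probes no pair shared such a run. P2RY10, a G protein-coupled receptor of lymphocytes, is one of these genes, and its probes are shown as an example without capitals.
P2RY10 probe 1: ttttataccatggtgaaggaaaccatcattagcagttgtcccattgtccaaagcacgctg
P2RY10 probe 2: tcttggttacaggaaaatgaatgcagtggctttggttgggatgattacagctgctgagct
The 2 P2RY10 probes had r = 0.990 and r = 0.982 to MS4A1. No run of 20 bases or more was shared between member probes of different genes, the longest being 16 bases, between MEF2B and MEF2C. The median GC content was 43.3% in the member probes and 43.3% in all 3236 eligible probes.

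MS4A1 spanned a 74.1-fold range over the 8 colonic arrays. Its normalized log2 signal was 7.68, 10.37, 12.72 and 10.33 on CS replicates 1 to 4 and 6.50, 12.57, 8.26 and 7.37 on RPS replicates 1 to 4. CS replicate 3 and RPS replicate 2 were thus high in their groups, CS replicate 1 and RPS replicate 1 were lowest, and the diets overlapped. CD79A had log2 signals of 6.59, 8.62, 10.67 and 8.02 with CS and 5.52, 10.07, 6.11 and 5.81 with RPS. POU2F2 gave 4.46, 6.49, 8.77 and 6.25 with CS and 4.51, 8.22, 4.88 and 4.27 with RPS. The same pair of arrays was highest for both genes. PAX5 could not be chosen, because the array lists its probe under a transcript identifier without a gene name, and the gene was assigned here by accession. Its log2 signal was 6.34, 6.59, 7.75 and 6.46 with CS and 5.59, 7.61, 6.16 and 5.29 with RPS, and its r to MS4A1 was 0.929. All 3 marker genes of the B cell label therefore had signal on every colonic array and the same 2 arrays on top.

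**Figure D1:**
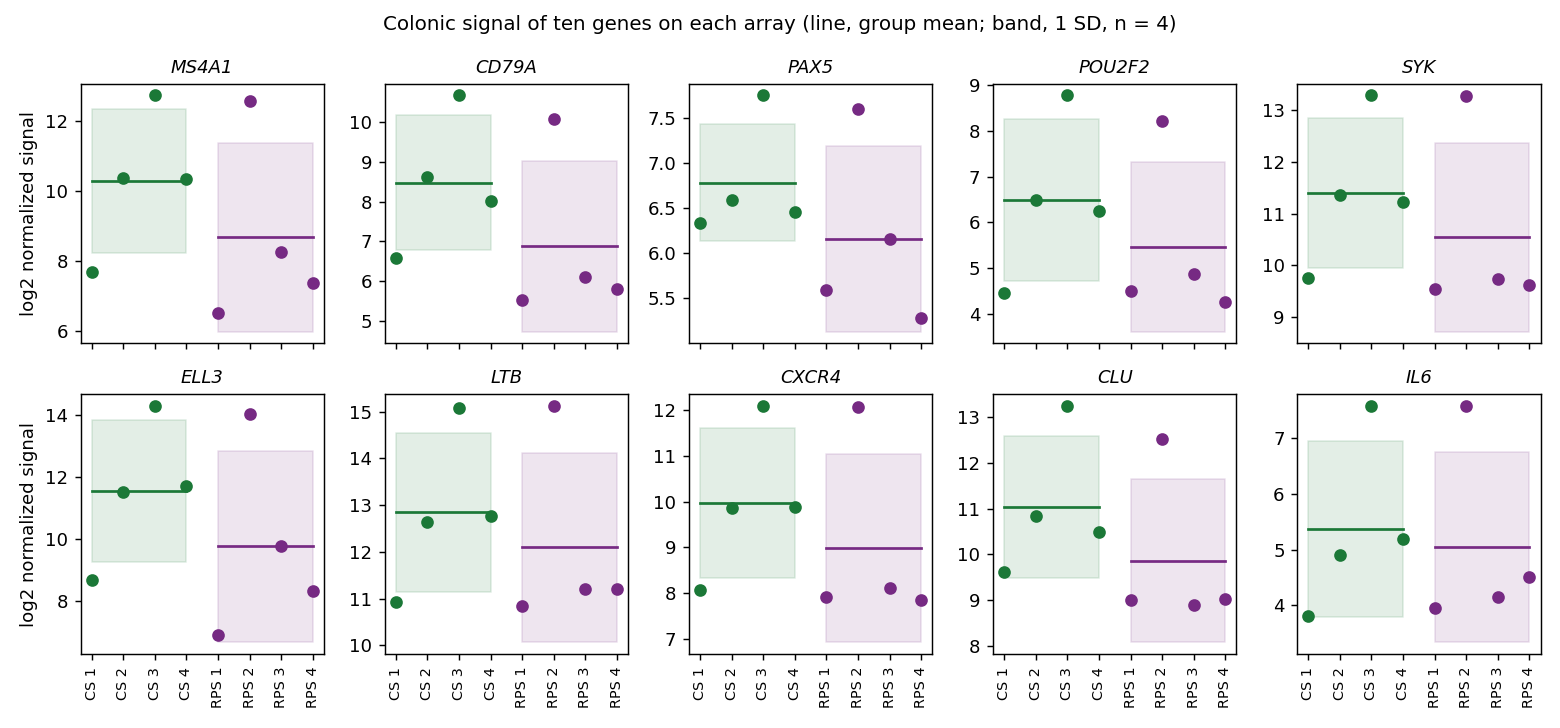
Normalized log2 signal (y axis, a separate scale per gene) of MS4A1, CD79A, PAX5, POU2F2, SYK, ELL3, LTB, CXCR4, CLU and IL6 on each of the 8 colonic arrays (x axis), with the group mean as a line and 1 SD as a band (n = 4). In every panel CS replicate 3 and RPS replicate 2 are the highest arrays, for MS4A1 at 12.72 and 12.57.

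This pattern was shared by nearly all members. CS replicate 3 and RPS replicate 2 were the 2 highest arrays for 192 of the 193 members. Among the 3236 eligible probes they were the 2 highest for 1021 (31.6%) and the 2 lowest for 1405 (43.4%). The mean log2 signal over the 138 member genes, 1 probe per gene, was 7.55, 8.59, 10.1 and 8.53 on CS replicates 1 to 4 and 7.34, 10.03, 7.71 and 7.43 on RPS replicates 1 to 4. CS replicate 3 was the highest array for 115 members and RPS replicate 2 for 78, whereas the lowest was CS replicate 1 for 44, RPS replicate 1 for 62, RPS replicate 3 for 10 and RPS replicate 4 for 77. Since the rule chose the members on these deviations, the counts describe them and test nothing. In tissue RNA, more cells of a type cannot be told apart from more RNA per cell.

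The r of the members ran from 0.938 to 1 with a median of 0.959, against a median of -0.48 over the eligible probes. The last probes taken were TLN1 (r = 0.9390), LCP1 (0.9390) and NIN (0.9383), and the next ones outside were probes of SLA-DQA1 (0.9382), SCG5 (0.9381) and LMO3 (0.9380). The limit therefore fell within a continuous range of values. Without CS replicate 3 and RPS replicate 2, a choice made after the values were seen, all 192 members other than the reference still had a positive r, with a median of 0.837. These 6 arrays were among the 8 on which the members were chosen, so the value is a description and no separate support. The eligible probes had a median of -0.07 on these 6 arrays and 45.8% were positive. Taking the 200 probes afresh on the 6 arrays returned 61 of the 193 members.

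Genes of other cell types moved with or against the members on these arrays, as shown by the lists of cell type genes, each gene being read at its brightest probe. Where a member gene of a list is named below, its r is that of its member probe with the highest r. The epithelial list (19 genes, among them CDH1, EPCAM, FABP1 and HNF4A) had a median r of -0.83, and 18 of 19 values were negative. Its mean log2 signal was 13.71, 13.53, 11.31 and 13.26 on CS replicates 1 to 4 and 13.85, 12.08, 13.72 and 12.99 on RPS replicates 1 to 4. The arrays high in the members were therefore low in epithelial genes, and the part of tissue sampling in the values of the members was not tested. The goblet cell list had a median r of -0.66 (6 genes), the endothelial list -0.67 (7 genes), the NK and cytotoxic list -0.37 (13 genes), the smooth muscle list -0.38 (5 genes) and the fibroblast and matrix list 0.06 (9 genes). Over 5513 genes with a symbol and signal on all colonic arrays, the median r was -0.05 and 6.39% exceeded 0.9.

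**Figure D2:**
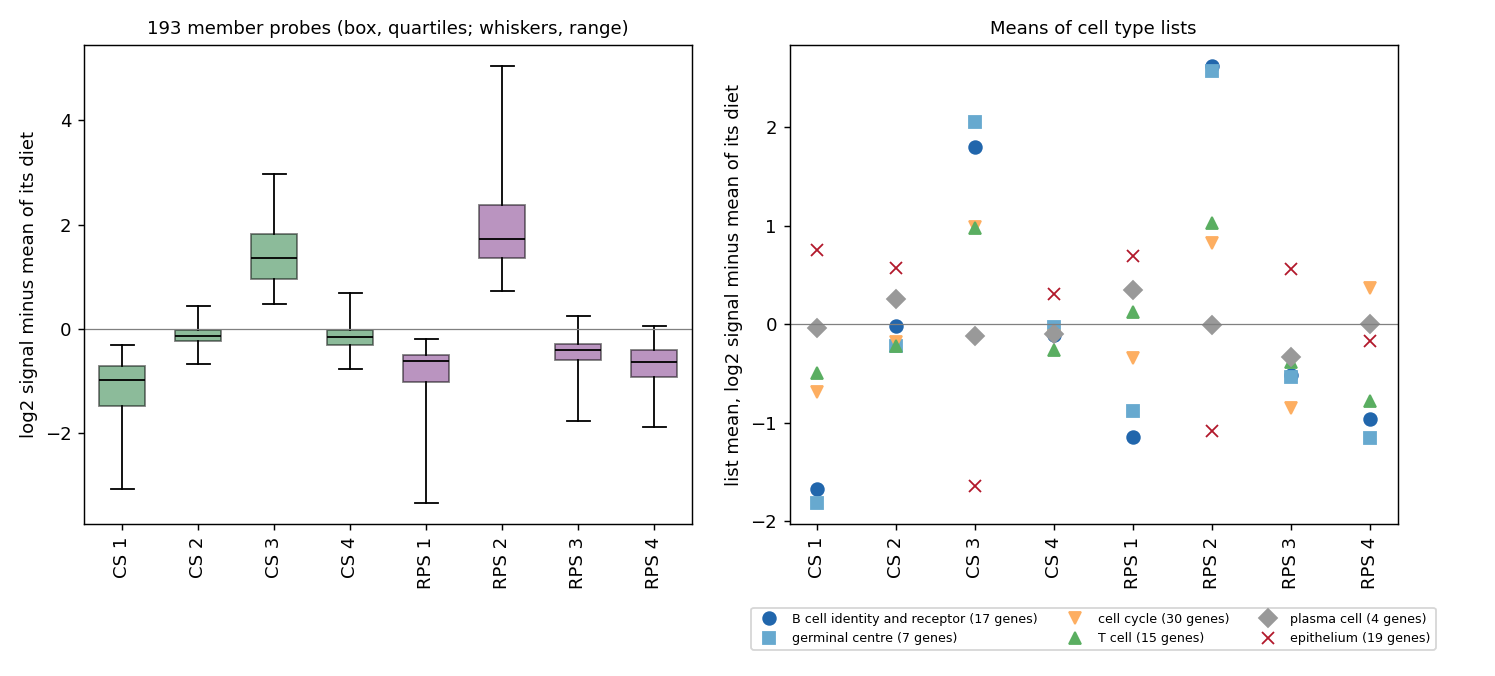
Left, log2 signal of the 193 member probes after subtraction of the mean of their diet, on each colonic array (box, quartiles; line, median; whiskers, range). Right, the mean of 6 cell type lists on the same scale, where epithelial genes lie at -1.64 on CS replicate 3 and -1.08 on RPS replicate 2, the arrays on which the members are highest.

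Of the B cell identity and receptor list, 37 genes in all, 18 were on the array, 17 had signal on all colonic arrays and 15 were members. FCRLA (r = 0.999) was closest to the reference, and VPREB3, a partner of immunoglobulin chains in developing B cells, had r = 0.994. CD79A (0.985) and LTB, lymphotoxin beta (0.984), came next. Other members of the list were the receptor signalling genes STAP1, SYK, BTK and PIK3AP1, the transcription factor genes SPIB and POU2F2, and the surface receptor genes CD40, CD180 and CD72, whose best probes had r between 0.948 and 0.982. PAX5 (0.929) and BLNK, the linker between receptor and kinases (0.824), were measured but not chosen. VPREB1 (LOC767627 on the array), a surrogate light chain gene that is on no list, followed VPREB3 with r = 0.993. On the RefSeq table of the pig genome assembly Sscrofa11.1, VPREB3 and VPREB1 lie with 2 protein-coding genes between them.

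Of the germinal centre list (17 genes), 10 were on the array, 7 had signal on all colonic arrays and 4 were members. Among them were ELL3, an elongation factor gene (r = 0.995), and MEF2B (0.984) and MEF2C (0.977), which encode transcription factors. ELL3 gave log2 signals of 8.68, 11.53, 14.29 and 11.70 with CS and 6.90, 14.04, 9.78 and 8.34 with RPS, a 168-fold range. It was again highest on CS replicate 3 and RPS replicate 2. BCL6, the central repressor of germinal centre B cells, had r = 0.965 but was not eligible, since its probe carries only an accession. GCSAM (0.866) and SH2D1A (0.822) fell short of the limit.

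The list of follicular dendritic and lymphoid stroma genes had 10 of 16 genes on the array, all with signal, and 6 members. LTA, lymphotoxin alpha, was a member through 1 probe (r = 0.991), whereas its brightest probe had r = 0.692 and too little spread to be eligible. LTB (0.984), ICAM1 (0.950), CLU (0.949), TNFSF11 (0.944) and MADCAM1 (0.942) were the others. ICAM1 and MADCAM1 encode adhesion molecules of vessels and stroma, CLU a chaperone that follicular dendritic cells express and TNFSF11 the cytokine RANKL. VCAM1 (0.910), NFKB2 (0.874) and TNFSF13B, the B cell survival factor BAFF (0.844), were not chosen. TNFRSF1A ran against MS4A1, with r = -0.841. LTA, TNF and LTB are direct neighbours on Sscrofa11.1, and TNF (named after its values were seen) was a member with r = 0.940. Its range was 3.56-fold, against 19.7-fold for LTB and 19.8-fold for LTA. Another eligible TNF probe had r = 0.721 and was not chosen.

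Of the pan-leukocyte list, 20 genes had signal and 6 were members, led by CXCR4 (r = 0.981), a chemokine receptor, and LCP1 (0.954), which encodes plastin of white blood cells. ARHGAP25 (0.943), HCLS1 (0.942), ITGB2 (0.942) and PTPN6 (0.941) lay near the limit. CXCR4 gave 8.07, 9.85, 12.09 and 9.88 with CS and 7.91, 12.07, 8.11 and 7.85 with RPS. The macrophage and dendritic list contributed CD83 (0.945) and CD80 (0.943), both costimulatory or activation genes of antigen-presenting cells, of 13 genes with signal. Its median r was 0.664, and 11 of the 13 values were positive. Those of MRC1 (-0.836) and CD163 (-0.772) were negative, and C1QA had 0.059. THY1 (0.963) was the only member of the fibroblast and matrix list.

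No gene of the T cell list was a member, although 15 had signal and 14 of them had a positive r (median 0.798). The brightest eligible ones were CD247 (r = 0.451), CD5 (0.789), ICOS (0.921) and GATA3 (0.798). The rule bars names starting with CD3, so that part of this lineage could not enter. The plasma cell list had 4 genes with signal and no member. XBP1 had r = -0.725, PRDM1 -0.252 and DERL3 0.844. PIGR (-0.665) was also on this list, although it encodes the receptor by which epithelial cells carry antibody. The list therefore does not stand for plasma cells alone. Of the cell cycle list, 30 genes had signal, 29 of these had a positive r (median 0.732), and none was a member. The lists were written with earlier results of these data known, and their values are descriptions.

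**Figure D3:**
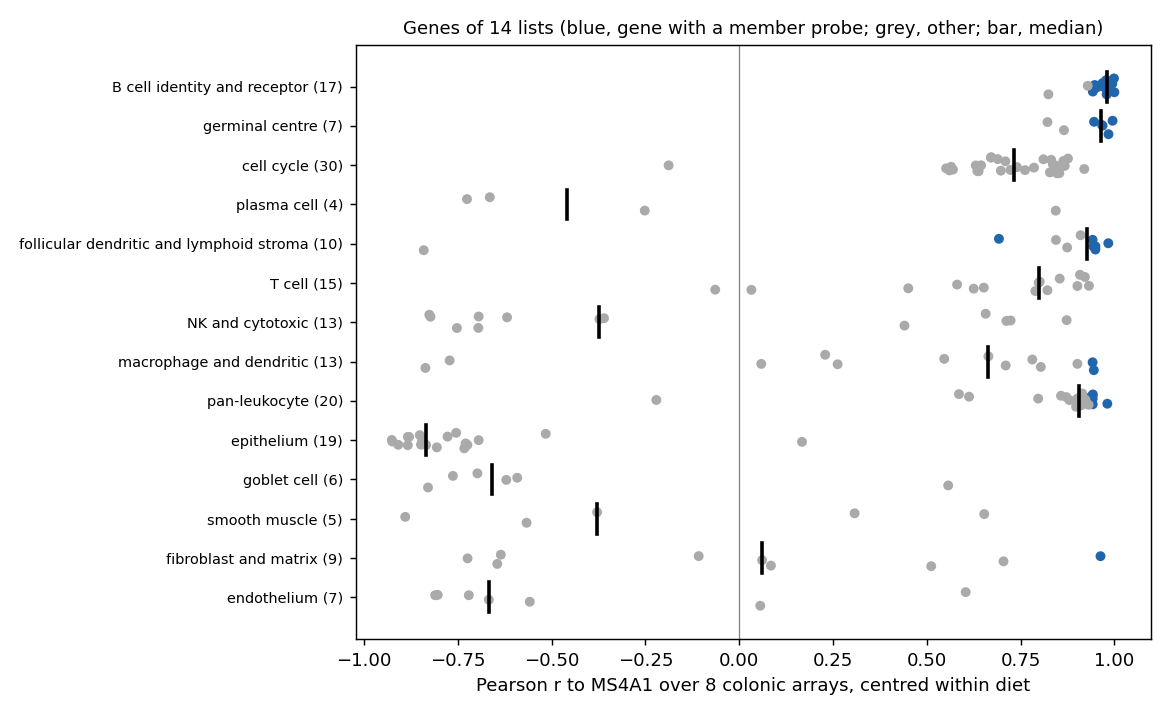
Pearson r to MS4A1 (x axis) over the 8 colonic arrays, centred within diet, for the genes of 14 lists (y axis, with the number of genes measured), each at its brightest probe, with blue for genes that have a member probe and a bar for the median. B cell genes lie at the right end with a median of 0.98, T cell genes spread below them (0.80), and epithelial genes lie at the left (-0.83).

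Only 33 of the 138 member genes were on any of these lists, and 105 were on none. Among the genes closest to MS4A1, these included CCK (r = 0.996), known as a hormone of the small intestine, the uncharacterised LOC100510923 (0.995), C3H2orf40 (0.993), PROCR, the protein C receptor gene (0.993), CD1.1, which encodes a lipid antigen-presenting molecule (0.992), and P2RY10 (0.990). CCK gave 4.65, 6.98, 9.27 and 6.53 with CS and 4.33, 9.52, 5.78 and 5.01 with RPS. C3H2orf40 had the widest range of all members, 476-fold, with 10.25, 13.75, 16.07 and 13.17 on the CS arrays and 7.18, 15.53, 10.23 and 9.07 on the RPS arrays. CCK and C3H2orf40 thus followed the array order of the B cell genes. Over all members, the range on the log2 scale ran from 1.26 to 8.89 with a median of 2.75.

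Several unlisted members were noticed after their values were seen. IL6, the interleukin gene (r = 0.960), gave 3.82, 4.90, 7.57 and 5.18 with CS and 3.95, 7.57, 4.14 and 4.50 with RPS. MGP, matrix Gla protein, had 5 member probes (r from 0.972 to 0.981), PKIA, a protein kinase A inhibitor gene, had 7 (0.948 to 0.975), and P311 had 5 (0.953 to 0.965). These probes were all selected for a high r, so their likeness was fixed by the rule. Of 4 other PKIA probes with signal on all colonic arrays, 1 had r = 0.054 and another r = 0.736. The remaining unlisted members can be ordered by role, again after their values were seen. Of genes with a part in signalling of lymphocytes, the chosen set held PRKCB, a protein kinase C gene (r = 0.959), NFATC1 (0.945) and NFATC2 (0.948), which encode calcium-dependent transcription factors, ITPR1, the gene of a calcium channel of internal stores (0.975), and HVCN1, which encodes a proton channel (0.976). HVCN1 gave 5.40, 6.39, 8.07 and 6.13 with CS and 4.88, 8.15, 5.27 and 5.04 with RPS. RFTN1, raftlin of lipid rafts, had 3 member probes (0.963 to 0.969) and a 7.32-fold range at the first. KLF2, a transcription factor gene of resting lymphocytes, had r = 0.968 and a diet difference of 0.0035.

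Of genes of DNA repair and mutagenesis, the members held NEIL1, a glycosylase gene (r = 0.977), POLH, which encodes the translesion polymerase eta (0.949), SMC6 (0.960), FANCI (0.953), and RRM2B, a ribonucleotide reductase subunit gene (0.961). POLH gave 5.91, 6.55, 8.53 and 6.96 with CS and 6.05, 8.24, 6.07 and 5.79 with RPS, a 6.65-fold range with the same 2 arrays on top. CDKN3 (0.982) and CENPI (0.941), genes of cell division that are on no list, were also members, with ranges of 2.99-fold and 2.63-fold. Other CDKN3 probes with signal on all colonic arrays had r of 0.556, 0.576, 0.598 and 0.880.

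Of phagocyte genes, the set held NCF1 (r = 0.945) and GP91-PHOX (0.947), which encode subunits of the NADPH oxidase, a complex that B cells also express, and IFI30, a thiol reductase gene of antigen processing (0.940). CHI3L1, a chitinase-like protein gene, had a 33.9-fold range, with 4.76, 6.52, 9.78 and 7.05 with CS and 5.11, 9.84, 5.26 and 6.11 with RPS. TMEM163, a zinc transporter gene, had a 68.2-fold range, with 6.52, 7.59, 10.09 and 7.60 with CS and 5.02, 9.61, 4.87 and 4.00 with RPS. Both were highest on CS replicate 3 and RPS replicate 2. TLN1, the talin gene, which most cells express, had a range of 2.50-fold.

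Another 87 probes of 51 member genes had signal on all colonic arrays but were not members. Of these, 85 had a positive r, 54 exceeded 0.9 and the median was 0.918. The 2 negative ones were a probe of SLC5A10 (-0.754) and a probe of NFATC2 (-0.469), so that the probes of these genes disagreed. Weakly positive were a probe each of KLF2 (0.12), NFATC1 (0.37) and PROCR (0.50), which had too little spread to be eligible. Another NFATC1 probe had 0.93.

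The diets were compared as RPS minus CS, a difference that the rule did not use, although it used the spread around the diet means. In the colon 1 of 193 members (0.518%) passed the thresholds taken from the study's methods, namely p below 0.05 before adjustment together with a change of more than 1.5-fold. Over all probes, 2.94% passed, and over the eligible probes 0.989%, so the members held no more calls than the background. No member passed after adjustment over all probes (smallest adjusted p = 0.90, limma). The groups overlapped for all 193 members, and failed to overlap for 0.309% of the eligible probes.

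The called member was PLA2G7, which encodes a phospholipase that degrades platelet-activating factor. It gave 7.64, 8.29, 8.64 and 7.96 with CS and 6.93, 8.20, 6.83 and 6.77 with RPS. All RPS arrays but replicate 2 lay under every CS array. The CS arrays averaged 8.13 ± 0.43 and the RPS arrays 7.18 ± 0.68 (SD, n = 4 each). PLA2G7 fell by 0.95 (log2) in limma, where the standard error was 0.37 and the adjusted p was 0.90. An exact two-sided permutation test of its 4 against 4 arrays gave p = 0.0857, where the smallest possible p is 0.0286.

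For MS4A1 the CS arrays averaged 10.27 ± 2.06 and the RPS arrays 8.68 ± 2.69 (SD, n = 4 each). The difference of -1.59 (standard error 1.54) was within the spread between pigs, with an adjusted p of 0.982 in limma. The exact permutation test gave p = 0.371. The difference was -1.60 for CD79A (standard error 1.24), -0.62 for PAX5 (0.56) and -2.81 for C3H2orf40 (1.96). None of these passed the thresholds. With 1 array left out, the difference ranged from -2.90 to -0.78 for MS4A1, from -2.67 to -0.87 for CD79A, from -1.10 to -0.30 for PAX5 and from -4.49 to -1.70 for C3H2orf40. The lowest values came without RPS replicate 2, and the highest without CS replicate 3, or without RPS replicate 1 for C3H2orf40.

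Of the 193 members, 182 (94.3%) had a lower mean with RPS, with a median difference of -0.51, and 54.7% of the eligible probes were lower, with a median of -0.05. The members were chosen to move together on these arrays, so the 182 are not independent of each other. The count depended most on CS replicate 3. Without CS replicate 3, 105 members were lower and the median was -0.02, beside 2069 of 3236 eligible probes and a median of -0.13. Without RPS replicate 2, 192 members were lower and the median was -1.08, beside 1579 eligible probes and a median of 0.03. In that setting 41 members (21.2%) passed both thresholds, all lower, beside 254 of 3236 eligible probes (7.85%) and 6.04% of all probes. CS replicate 3 and RPS replicate 2 were also left out together, a setting chosen after the values were seen and by the level of MS4A1 itself. There 184 members were lower and the median was -0.63, beside 1920 eligible probes and a median of -0.10. In that setting 52 members (26.9%) passed, all lower, beside 274 eligible probes (8.47%) and 5.47% of all probes. No member passed after adjustment in any of these settings (limma). The epithelial list lay at a median difference of 0.19, and 15 of its 19 genes were higher with RPS, none past the thresholds. No gene of the B cell, germinal centre, follicular or pan-leukocyte lists passed at its brightest probe. The T cell list had 1 of 15 genes past the thresholds (CD4). The macrophage and dendritic list had 3 of 13 (the complement genes C1QA, C1QB and C1QC). The smooth muscle list had 1 of 5 (TPM2) and the fibroblast and matrix list 2 of 9 (COL1A2 and PDGFRB). All were lower with RPS and none passed after adjustment. Of the 5513 genes with a symbol and signal, each at its brightest probe, 43 passed as lower and 59 as higher.

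Every slide held the arrays of 1 group, so that slide and diet cannot be told apart, and centring within diet also centred the slides. The median signal before normalization was 56.3 to 70.8 on the CS arrays and 34.2 to 42.5 on the RPS arrays of the colon, and 64.9% to 72.2% of the probes were well above background.

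**Figure D4:**
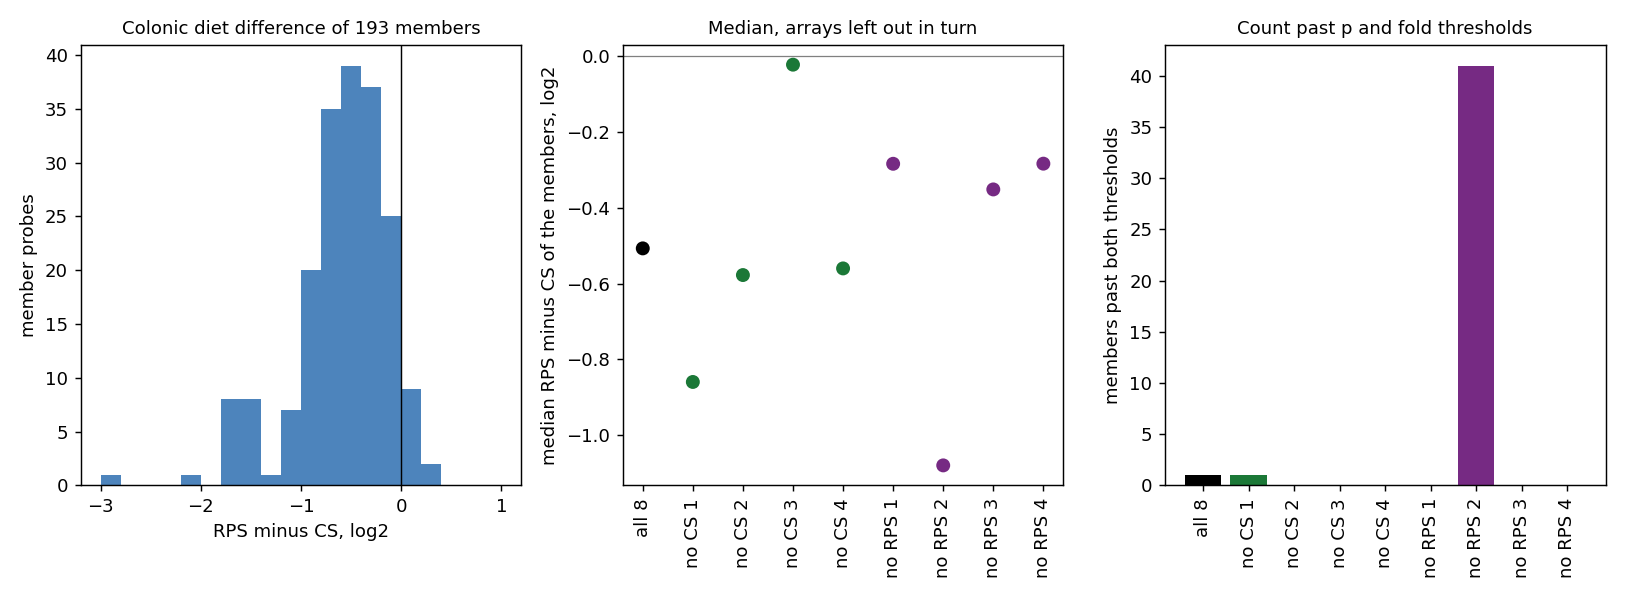
Left, number of member probes (y axis) by RPS minus CS in the colon (x axis, log2), most of them between -1 and 0 with a median of -0.51. Middle and right, the median difference and the number of members past both thresholds with all 8 arrays and with each array left out, where leaving out CS replicate 3 brings the median to -0.02 and leaving out RPS replicate 2 raises the count from 1 to 41.

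In the liver, which the rule did not use, the members did not follow MS4A1. MS4A1 was well above background on all 8 liver arrays at a low level, with 4.11, 5.35, 3.90 and 4.32 with CS and 4.65, 4.68, 4.53 and 4.19 with RPS. Its liver signal therefore varied little, which limits any correlation with it. Of the 159 members besides MS4A1 that were well above background on all liver arrays, 79 (49.7%) had a positive r, with a median of -0.04. The eligible probes gave 48.3% and a median of -0.02, so the members did not stand out. FCRLA had a liver r of -0.58 and VPREB3 of 0.77.

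Between the diets in the liver, 4 of 193 members (2.07%) passed the thresholds, all higher with RPS, against 4.3% of the eligible probes and 3.56% of all probes. They were the 2 probes of SULT1A1, a phenol sulfotransferase gene, and SLC26A6, an anion exchanger gene, and VPREB3. SULT1A1 gave 15.48, 15.10, 13.55 and 15.14 with CS and 16.46, 16.46, 16.46 and 15.17 with RPS at its first probe, a rise of 1.32 (standard error 0.49, adjusted p = 0.593 from limma). RPS replicate 4 lay within the CS range, so the groups overlapped. SLC26A6 gave 7.32, 7.20, 6.42 and 7.06 with CS and 8.13, 7.82, 8.96 and 8.06 with RPS, and did not overlap. Its difference of 1.24 (standard error 0.29) had an adjusted p of 0.393 in limma, and the exact permutation test gave p = 0.0286, the smallest possible. None of the 4 held after adjustment.

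The diet effect in the colon minus that in the liver passed the same thresholds for 4 members (2.07%), all negative, against 1.82% of the eligible probes and 3.76% of all probes. These were SULT1A1 with -1.80 and -1.82 at its 2 probes (standard error 0.82 at the first), SLC26A6 with -1.54 (0.53) and PLA2G7 with -1.25 (0.42). The smallest adjusted p among the members was 0.806 (limma). Without RPS replicate 2 of the colon, 49 members (25.4%) passed, beside 9.89% of the eligible probes and 6.43% of all probes.

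The level of the members was compared between the tissues over all 16 arrays, with an adjusted p under 0.05 and a fold change above 1.5. Higher in the colon were 91 members (47.2%), against 51.1% of the eligible probes. Higher in the liver were 29 members (15.0%), against 23.1%. Neither share exceeded the background. MS4A1 averaged 9.31 ± 2.46 (SD, n = 8) in the colon and 4.74 ± 0.44 (SD, n = 8) in the liver, a difference of 4.57 (standard error 0.84, adjusted p = 0.000336 from limma).

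Among the members, 10 were not well above background on any liver array. For these the colonic excess is a lower bound, since the lowest well measured liver signal stood in for theirs where theirs was lower. The colon was at least 14.9-fold higher for LTA, 9.76-fold for TMEM163 and 16.2-fold for TPBG at 1 of its 3 probes. A further 23 members were well above background on 1 to 7 liver arrays and 160 on all 8. Among members measured on all liver arrays, the largest colonic excess was that of C3H2orf40 with a difference of 5.403 (standard error 1.07) and ELL3 with 5.13 (0.94). These 2 genes were thus high in the colon and weak in the liver.

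Genes of secreted and metabolic liver proteins made up the opposite end. F5, coagulation factor V, averaged 4.93 ± 1.60 (SD, n = 8) in the colon and 13.1 ± 0.21 (SD, n = 8) in the liver, a difference of -8.18. GATM, an enzyme gene of creatine synthesis, differed by -7.29, LCAT, which esterifies plasma cholesterol, by -6.34, CLU by -5.16, A2M, a plasma protease inhibitor gene, by -4.61 and SMOC1 by -4.20. All 6 passed (limma, adjusted p of 9.7e-06 or less). These genes followed MS4A1 in the colon at much lower signals than their own liver signals. PAX5 was also lower in the colon (6.23 ± 0.88) than in the liver (7.41 ± 0.36, SD, n = 8), unlike MS4A1 and CD79A.

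**Figure D5:**
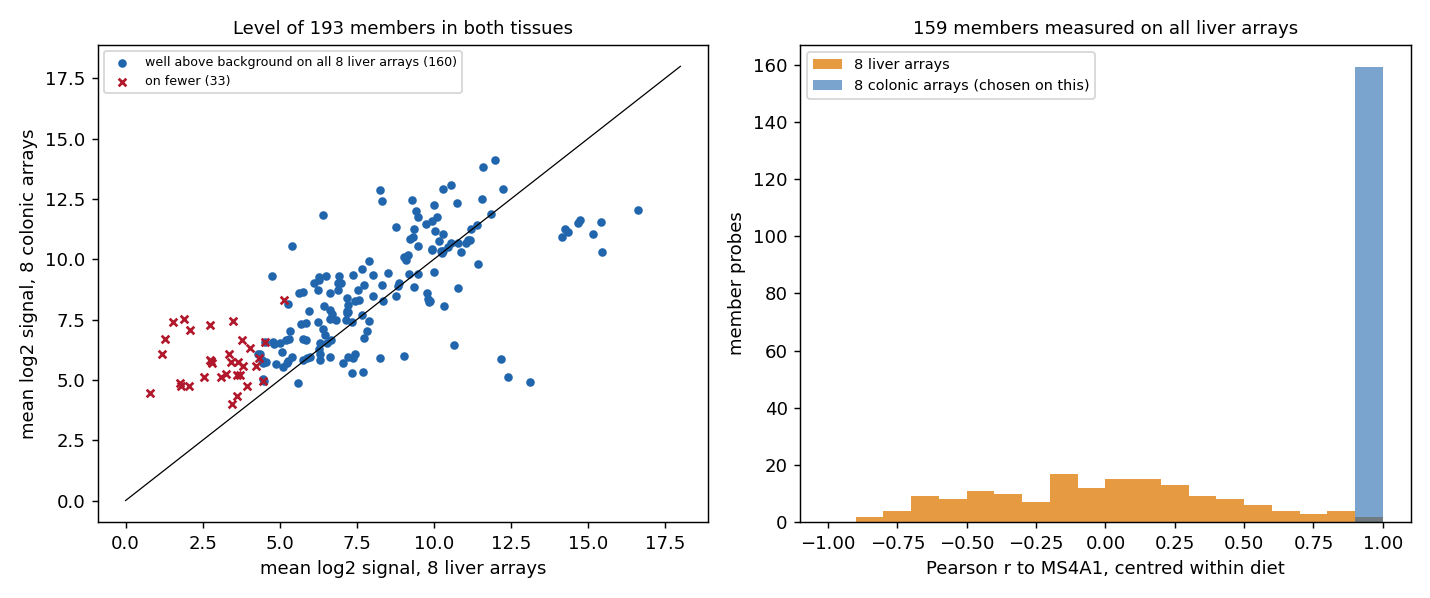
Left, mean log2 signal of the 193 members on the 8 colonic arrays (y axis) against the 8 liver arrays (x axis), with crosses for the 33 members not well above background on every liver array and a line of equality. Right, number of members (y axis) by r to MS4A1 (x axis) in the colon, on which they were chosen, and in the liver, where the values spread around a median of -0.04.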

How the data were processed

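Arrays of 1 colour (Agilent) measured colonic mucosa and liver of 4 pigs per diet and tissue. Per the file headers, the authors had Agilent Feature Extraction (10.7 in the submitters' processing notes) write background-subtracted spot intensity, not normalized between arrays, with flags for outliers and for signal above background. A second deposited table gives the same arrays on the log2 scale, which the authors had quantile normalized in GeneSpring. The rule was applied to this log2 table. All levels and differences came from the scanner intensities, with outlier spots set to missing, put on the log2 scale, quantile normalized within each tissue (over all 16 arrays for comparisons between tissues) and averaged per probe.

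Differences were fitted over all 43603 probes with limma 3.58.1 (lmFit and eBayes, R 4.3.3), and p-values were adjusted by Benjamini-Hochberg. Single genes were compared by exact two-sided permutation tests, with no adjustment over genes. The Python libraries numpy, pandas and matplotlib were used for counts and figures. Current symbols came from the RefSeq gene list for Sscrofa11.1, for 10039 probes by symbol, 2549 by LOC number, 1406 by accession and 53 by an older name, while 574 kept the name of the file and 28982 had none. Coordinates are not given, because the array files name no genome build.

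The members, the 14 gene lists and the rules for named genes were chosen with earlier results of these data known. Genes were named if they were the marker genes, were the 12 closest to MS4A1, were up to 6 members per list, passed in a diet comparison, lay beside the limit, or had the 6 largest differences between tissues. The study's methods call the 4 arrays per group biological replicates, and p-values measure the spread between these samples only. The sources do not say whether colon and liver arrays of 1 number came from the same pig. The number of arrays limits the precision. The scripts were tested on simulated data. Some members are counted but not reported by name here.

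Alternatives were other scalings (75th percentile, 16 arrays), normexp correction (offset 50), the authors' log2 values, the methods' t-test, a fold change above 2, a filter on dim probes, outlier spots kept, the replicate number as a block, and each array left out. For the choice of members, Spearman correlation, no centring and centred SD limits of 0.25 and 0.75 were also tried.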

Additional observations from a re-analysis of the deposited data

Results flagged for a closer look

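In groups of 4 arrays, the distance of the outermost value to its neighbour relative to the whole range exceeded Dixon's 95% critical value in 3 of 40 groups looked at, where chance gives about 1 in 20. All 3 concerned RPS replicate 2 in the colon, which lay at 10.07 for CD79A (group median 5.96), at 8.20 for PLA2G7 (6.88) and at 10.03 for the mean of the member genes (7.57). The members were chosen on these deviations, which are high for MS4A1 on the same array, so the selection bears on this count, it cannot be read against the chance rate, and the values are a description.

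The diet difference in the colon minus that in the liver passed the unadjusted thresholds for SULT1A1 (listed as SULT1A3 in RefSeq) with -1.80 and -1.82 at its 2 probes, PLA2G7 with -1.25 and SLC26A6 with -1.54. None passed after adjustment over all probes (limma).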

How the results depend on the processing

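The choice of members returned 152 to 193 of the 193 with scanner signals, Spearman correlation, no centring, other SD limits or names left out first, 127 to 164 with 1 array left out (127 without RPS replicate 1), and 61 without CS replicate 3 and RPS replicate 2. Centring also within the replicate block returned 103. The study allocated pens in randomized blocks, but the sources do not say whether the array numbers stand for them, and deviations of same-numbered CS and RPS arrays of the colon correlated with r of 0.54, -0.38, -0.52 and 0.10. With the replicate block, 1 member passed in the colon, 5 in the liver, and 2 in the comparison of diet effects. These counts are 0.518%, 2.59% and 1.04% of the members, beside 1.05%, 4.11% and 1.92% of the eligible probes. Of all probes, 2.91%, 3.49% and 3.97% passed.

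In the colon the count of 1 became 0 with a fold change above 2 and with the methods' t-test, and ranged from 0 to 41 with 1 array left out. The 41 came without RPS replicate 2, and 52 passed without both high arrays, where 6.04% and 5.47% of all probes passed. The other alternatives gave 1. PLA2G7 lost its call with the methods' t-test and without any 1 of 6 arrays. The number of members lower with RPS ranged from 105 (without CS replicate 3) to 192 (without RPS replicate 2), and was 184 without both high arrays. In these settings 2069, 1579 and 1920 of 3236 eligible probes were lower. Without CS replicate 3 the differences of CCK, CD1.1 and LTA turned positive, and with 1 array left out they ranged from -1.81 to 0.11, from -0.92 to 0.14 and from -1.57 to 0.069. The liver count of 4 ranged from 3 to 10 with 1 array left out (9 without CS replicate 4, 10 without RPS replicate 3, 7 without RPS replicate 4). These 3 counts are 4.66%, 5.18% and 3.63% of the members, beside 5.32%, 4.51% and 5.81% of the eligible probes. The count of 4 for the difference of diet effects ranged from 2 to 49 (7 without CS replicate 1 of the colon, 49 without RPS replicate 2), and was 54 without both high arrays. The 7 are 3.63% of the members, beside 2.66% of the eligible probes and 3.91% of all probes. In the settings with 49 and 54, 9.89% and 9.7% of the eligible probes and 6.43% and 5.97% of all probes passed. The count for the tissues stayed between 100 and 132 of 193 (51.8% and 68.4%). The share of the eligible probes stayed between 64.1% and 75.1%. The number of members with positive r in the liver ranged from 58 to 88 with 1 array left out, and was 65 with Spearman correlation and 96 with the replicate block. Causes were not tested. A different MS4A1 probe could not be used, since the array has 1, and no block for the slide could be fitted within a tissue, since each slide holds 1 group. No promoter sequences were used here, so promoter motifs were not searched.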
